A study of Drosophila melanogaster with 11 samples.

Results

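Genes of the fly genome lie close together, and a bound region can fall on more than a single gene. In the Qseq table of the un-driven m8 DamID, 221 of 3973 peaks lay on chromosome arm 2L, 3L or 3R and had 2 or more gene names in the cell of intersecting genes. These peaks made up 9.38% of the 2355 Qseq peaks of the 3 arms (exact binomial 95% interval 8.24 to 10.6%, counting error only). They were 83 peaks on 2L, 63 on 3L and 75 on 3R. On the same arms 1618 peaks had exactly 1 name and 516 had none.

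The study followed Su(H) and a pair of E(spl) repressors, m5 and m8, on DNA in Drosophila melanogaster embryos, with 11 libraries in 6 groups. The table used here holds 1 library of the un-driven m8 DamID, in which whole embryos of stage 9 to 16 carried a UAS transgene for m8 fused to Dam, a bacterial methyltransferase, and no Gal4 driver. The low expression that leaks from the UAS element in every cell type limits what this group can say about any one tissue. The group has 2 libraries, and the sources used here do not give which one the table holds. The other 5 groups, with m5 DamID, DamID under pros-Gal4 and ChIP, were not analysed here, and none of the 11 libraries is of unfused Dam. With 1 library there was no replicate of any value, no p-value was computed between sets of peaks, and every comparison is a description of this library.

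E(spl)-HLH proteins are basic helix-loop-helix repressors that Notch signaling switches on through Su(H), and they bind E box and N box letters in DNA with the corepressor Groucho. In DamID the fusion protein leaves a methyl group on the adenine of nearby GATC sites. DpnI cuts only at methylated GATC, and PCR then amplifies the stretches between cut sites. A peak marks a stretch with marked sites in or near it, and it does not name the gene that is regulated. Where a peak lies on a pair of genes, reads give no means to assign it to either.

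Of the peaks of this kind on 2L outside the histone genes, some began at a GATC, and sequences of these are shown because the assay cuts there. Bases 5′ to 3′ of the plus strand are shown around the first base of the 5 peaks with the highest RPM (reads per 1000000 reads of the library) among those of 2L, outside the histone genes, that began at a GATC (Release 6, RefSeq), with the GATC nearest to that base in capitals. The first window holds a further GATC, in lower case.
FKBP59, CG34183 and CG4537, chr2L:9889980-9890009: tcatgatctaattcaGATCgactagtgctt
ush and cbt, chr2L:477990-478019: tcatcgtccagcttttGATCcggcggcggt
PRL-1 and EndoGI, chr2L:16255970-16255999: gattagcaaacagtgcGATCaagataaaca
CG11455 and CG3164, chr2L:128153-128182: tccataaaagcagtaGATCcaaaaaaaaac
CG42533 and Obp28a, chr2L:7494953-7494982: gcgaaatgaaaacatGATCatgtctacaag
The window of FKBP59 and its neighbours lies on coding and other exon, that of ush and cbt on coding exon, and the other 3 in introns.

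Of the 53 peaks on 2L with 2 or more names outside the histone genes, 26 (49.1%) began within 5 bp of a GATC. The same held for 208 of 457 peaks with 1 name (45.5%), whereas 3.62% of all bases of 2L lie that close to a GATC. The most frequent offset was 2 bp after the G, found in 11 of the 53 peaks and in 110 of the 457. Right ends met a GATC within 5 bp in 1 of 53 and in 22 of 457 peaks. Between their ends the 53 peaks held a median of 2 GATC sites, from 0 to 6, and 9 of them held none. In the central 300 bp a GATC was present in 10 of 53 peaks (18.9%), in 28.0% of peaks with 1 name and in 48.7% of windows of 300 bp tiled along 2L.

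**Figure D1:**
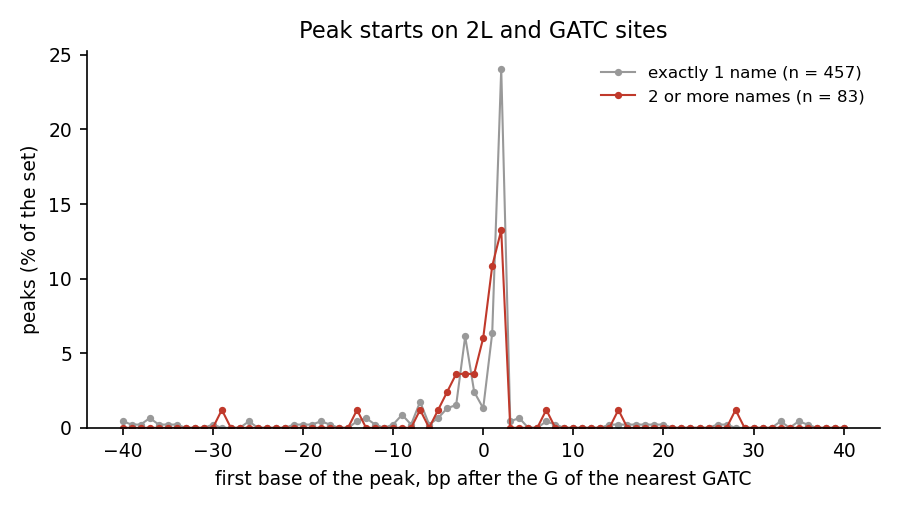
Distance from the G of the nearest GATC to the first base of the peak (x axis, bp) against the share of peaks on 2L (y axis, %), for the 83 peaks with 2 or more names and the 457 with exactly 1 name. Both sets pile up from a few bases before the site to 2 bp after it and are near 0 elsewhere.

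Peaks on 2 or more genes held about as many reads as peaks on 1 gene. Their RPM had a median of 46.7, with quartiles of 29.6 and 81.0 and a range from 20.3 to 848. Peaks with 1 name had a median of 41.8 RPM, quartiles of 28.6 and 77.4 and a maximum of 1826 RPM. The quartiles of the 2 sets lay close together. In 52.5% of all pairs of a peak with 2 or more names and a peak with 1 name, the former had the higher RPM, with ties shared equally between the sets. Median length was 838 bp (quartiles 646 and 1199, range 343 to 2956) against 785 bp (589 and 1063, 205 to 5346). A longer interval meets more genes by construction, and RPM grows with length. Reads per bp did not follow the same order, with medians of 0.106 and 0.109.

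**Figure D2:**
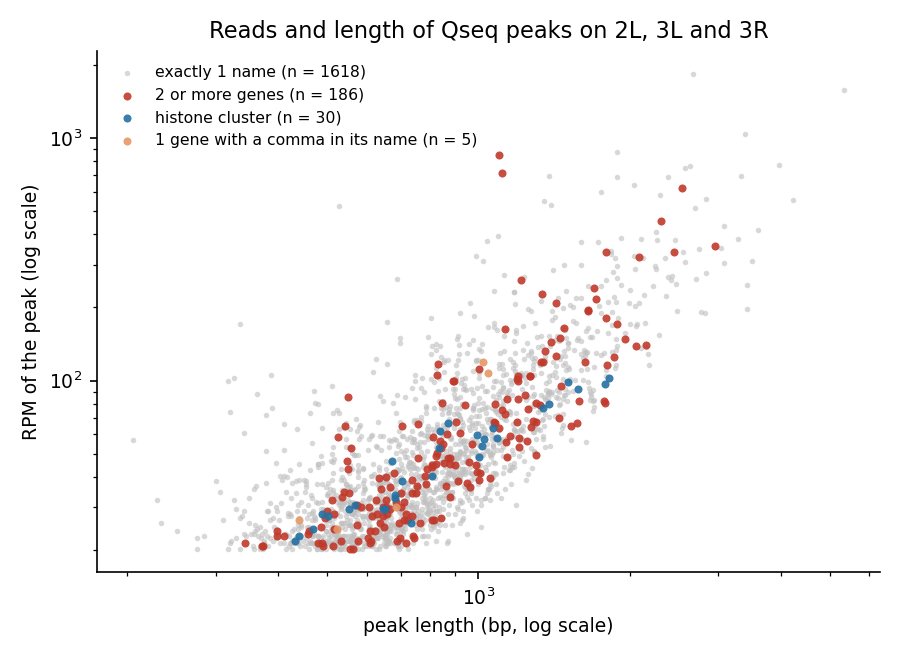
Length (x axis, bp, log scale) and RPM (y axis, log scale) of each Qseq peak on 2L, 3L and 3R, with 186 peaks over 2 or more genes, 30 of the histone cluster, 5 over 1 gene whose name holds a comma, and 1618 peaks with exactly 1 name. Most coloured points lie within the grey cloud, and 2 of them, at 848 and 717 RPM, are high for their length. Some grey points are too, and peaks with exactly 1 name reached 1.92 reads per bp.

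Within classes of equal length the order of the sets was mixed. In peaks of up to 646 bp the medians were 26.2 RPM for 58 peaks with 2 or more names and 27.01 RPM for 519 with 1. From 647 to 838 bp they were 34.3 and 34.5 RPM. From 839 to 1199 bp they were 59.7 and 55.6 RPM, and above that 116 and 130 RPM. The share of peaks that had 2 or more names went from 7.20% in the shortest class to 13.5% in the longest.

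**Figure D3:**
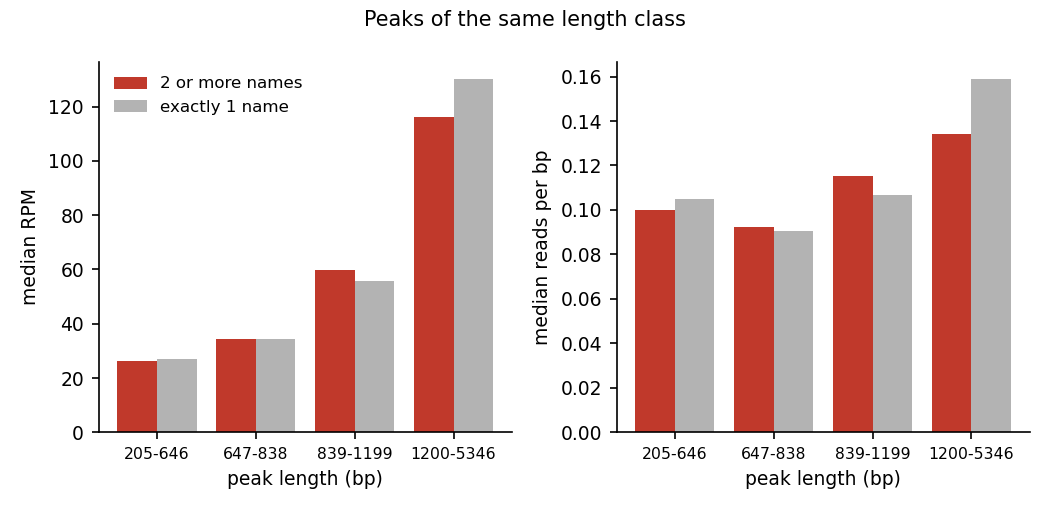
Median RPM (left) and median reads per bp (right) of peaks with 2 or more names and with exactly 1 name, in 4 classes of peak length cut at the quartiles of the former. The bars of a class are near each other in both panels, and peaks with 2 or more names are lower in the longest class, at 116 against 130 RPM.

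By arm, the medians were 46.7 RPM on 2L, 44.7 on 3L and 53.0 on 3R, and those of peaks with 1 name were 43.1, 44.2 and 39.997 RPM. The ratio of the medians was largest on 3R, at 1.32. The share of peaks with 2 or more names was 12.0% on 2L (interval 9.64 to 14.6%), 8.11% on 3L and 8.48% on 3R. Without the 30 peaks of the histone cluster, the share on 2L was 7.98%. Windows of 838 bp, the median length of these peaks, touched 2 or more RefSeq genes in 12.0% of cases on 2L, 10.6% on 3L and 10.8% on 3R, beside 8.22% of peaks on the 3 arms outside the histone cluster. The names in the cells come from the annotation the authors used, so the shares of windows and of peaks are not like for like. By RefSeq positions on 2L, 2 or more genes were touched by 49 of 53 such peaks and 24 of 30 histone peaks. The same held for 18 of 457 peaks with 1 name and 0 of 154 with none.

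The rule splits names at every comma, and 9 of the 221 peaks named 1 gene whose own name holds a comma, 4 of them histone genes. The other 212 had 2 genes (186 peaks), 3 genes (22) or 4 genes (4), and a median of 47.3 RPM. The 5 peaks outside the histone cluster with 1 such gene lay between 24.4 and 119 RPM. Of these, 3 lay on the alphagamma-element, a repeated non-coding transcript of the heat shock locus, of whose 100 bp stretches 27.8% occur once in Release 6. The others were on the small nuclear RNA 7SK at 24.4 RPM and on a valine tRNA gene at 30.1 RPM.

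The strongest peak lay on FKBP59, CG34183 and CG4537 at chr2L:9889995-9891092. FKBP59 encodes a prolyl isomerase of the FK506-binding family. The peak held 1632 reads, 848 RPM (Poisson 95% interval 807 to 890, counting error only) and 1.49 reads per bp, the most reads per bp of all 221, and its rank by RPM among all 3973 Qseq peaks was 15. The interval covered 596 bp of coding exon, 192 bp of other exon, 198 bp of intron and 112 bp between genes, and the transcripts of CG34183 and CG4537 start inside it. These neighbours are divergent with a gap of 112 bp, and CG34183 overlaps the end of FKBP59. None of the E box, N box or Su(H) letters that were searched occurred in its 1098 bp. MACS, the other peak caller, gave 527 RPM there.

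The next peak lay on 3R on the non-coding RNA CR43644 and a gene listed as E, a name cut at its bracket. By gene order the nearest gene of that form is E(spl)m3-HLH, 746 bp away and divergent, a member of the same repressor family as the fusion protein. This peak held 1380 reads, 717 RPM (679 to 756) on 1114 bp, or 1.24 reads per bp. It was the only one of the 221 placed on a gene of the E(spl) complex or Bearded family. Of 18 such genes 1 (5.56%) was on peaks with 2 or more names and 1 (5.56%) on peaks with 1 name. For all genes of the 3 arms the shares were 3.48% and 7.57%. A name cut at its bracket could be placed only where a neighbour was named, so further peaks on these genes may be missed. The peaks on CG18622 and MESK4 (622 RPM, 2545 bp) and on omd and flfl (455 RPM, 2314 bp) followed. Flfl, or falafel, is a regulatory subunit of protein phosphatase 4. CG18622 and MESK4 are divergent and omd and flfl overlap at their ends.

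The longest peak, of 2956 bp, lay on ush and cbt at chr2L:478005-480960 with 691 reads or 359 RPM (333 to 387). Ush is a zinc finger cofactor of GATA factors, and cbt encodes a zinc finger transcription factor and is nested in the span of ush on the other strand. The peak covered the start of cbt, and held both E box forms and both N box forms of the letters searched. Its 0.234 reads per bp were far below those of the strongest peak. MACS gave 757 RPM for its peak at this place, more than the Qseq value.

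Peaks on PRL-1 and EndoGI (653 reads, 339 RPM, 2448 bp) and on Lasp and CG43954 (652 reads, 339 RPM, 1792 bp) were next to each other by RPM. PRL-1 encodes a phosphatase and EndoGI an inhibitor of endonuclease G, and the pair is divergent with a gap of 81 bp. Lasp encodes a LIM and SH3 domain protein of the actin cytoskeleton and holds CG43954 within its span. A peak of 2086 bp on G-ialpha65A and the non-coding RNA CR32385 had 324 RPM (299.2 to 350.6). G-ialpha65A encodes an inhibitory G protein alpha subunit that acts in the asymmetric division of neuroblasts. The peak on Tl, the Toll receptor, and a small nucleolar RNA was among the 5 longest, with 2153 bp and 140 RPM.

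Mi-2, the ATPase of the NuRD complex, shared 6 peaks with a gene listed as Su, by position Su(Tpl), which encodes an elongation factor, and 1 of these 6 also named CR32218. The strongest of them had 260 RPM (237 to 284) and 0.412 reads per bp. MBD-like, a gene for a methyl-CpG-binding domain protein, and the clathrin adaptor gene AP-47 shared a peak of 228 RPM and are divergent with a gap of 234 bp. Trl, the GAGA factor, and CG33260 shared a peak of 181 RPM, chosen here after its value was seen.

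Others of the 15 peaks with most RPM lay between 194 and 241 RPM. Among them were those on CG33229 and CR42862 (241 RPM), on CG11455 and CG3164 (209 RPM), on exba and a small nucleolar RNA in its span (196 RPM), and on pros, KP78a and KP78b (194 RPM). Pros encodes the homeodomain protein Prospero, which leads neural progenitors out of division, and KP78a and KP78b encode protein kinases within the span of pros in Release 6. A second peak on the same 3 genes had 21.3 RPM. The strongest peak that named pros alone had 298 RPM.

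At the other end, the lowest 2 peaks held 39 reads or 20.3 RPM (14.4 to 27.7), just above the limit of 20 RPM that the authors set. In all, 126 of the 221 peaks (57.0%) reached 40 RPM, 41 (18.6%) reached 100 RPM and 13 (5.88%) reached 200 RPM. For peaks with 1 name these shares were 52.5, 17.4 and 5.69%.

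The histone genes stood out by number. The replication-dependent histones of the fly are encoded in a tandem array on 2L, where each repeat of about 5 kb holds His1, His2B, His2A, His4 and His3. RefSeq places 23 copies between 21416953 and 21543688 of 2L. Of 31 Qseq peaks there 30 had 2 or more names. Their RPM ranged from 21.8 to 102 around a median of 47.5, and the last peak, at 39.0 RPM, had none. Together the 30 peaks held 2947 reads. All 18 peaks with 5 or more names after splitting at commas were of this array. The strongest of these had 102 RPM (88.5 to 118) and lay on 1 copy each of His2B, His2A, a small non-coding RNA gene and His4.

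The copies are nearly identical, so the read placement among them is uncertain. In 28 of the 30 peaks no stretch of 100 bp, the read length, occurred once in Release 6, and the median stretch occurred 20 times. In contrast, all stretches of all 53 other peaks on 2L occurred once. The absence of peaks from 3 of the 23 copies, and the order of RPM among copies, therefore cannot be read as differences between copies.

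What could be read was the place within the repeat. Counts over copies depend on how the same reads were placed, so the copies are not separate observations. His1 was covered in 0 of 23 copies. His2A, by contrast, was touched in 18 of 20 copies, with a mean of 80.8% of its length in peaks, His2B in 16 of 23 (33.4%), His4 in 16 of 22 (54.0%) and His3 in 3 of 23 (2.73%). The pattern is set beside the GATC sites of the repeat here, and their part in it was not tested. The GATC fragment that runs from inside His2B over His2A and His4 to the start of His3 was 1736 to 1899 bp long, and 19 of 22 such fragments held a peak, with a mean of 62.0% of their length covered. The fragment from His3 to His1 was 1094 to 1451 bp long, and 3 of 23 held more than 20 bp of a peak, with a mean of 1.14% covered. Of the 30 peaks, 12 began within 5 bp of a GATC, 0 ended that close to one, and 24 held none between their ends.

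**Figure D4:**
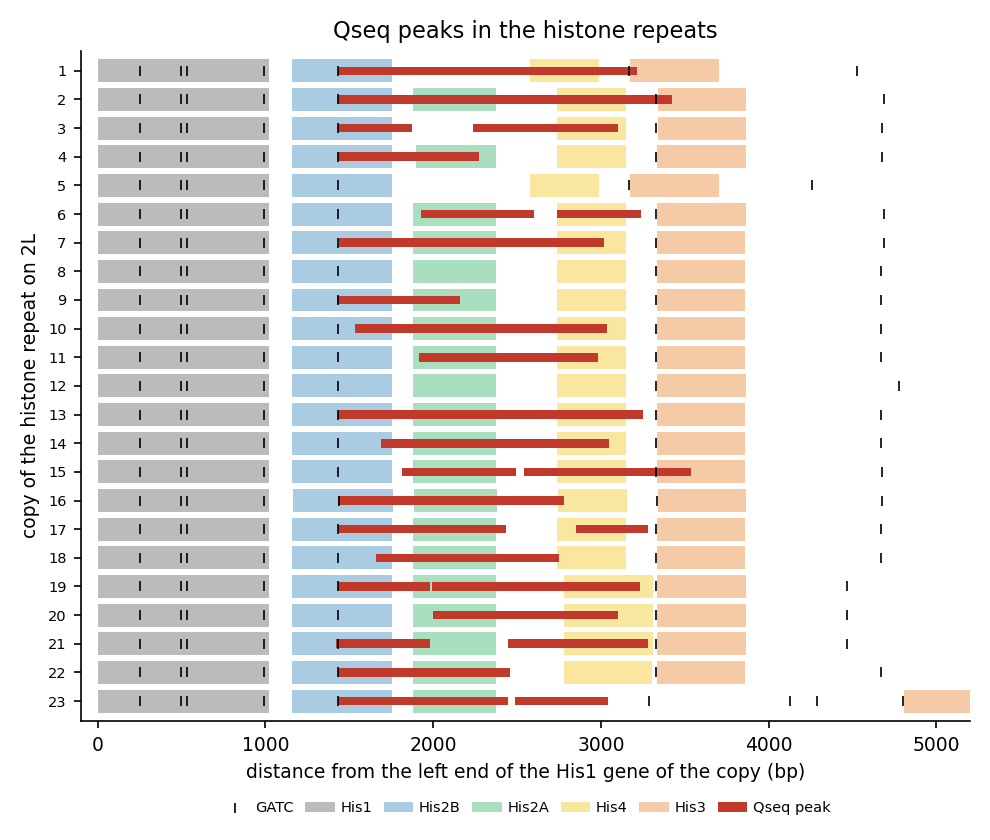
Qseq peaks (red bars) in the 23 copies of the histone repeat on 2L (y axis), by distance from the left end of the His1 gene of the copy (x axis, bp), with histone genes as pale boxes and GATC sites as black ticks. Peaks lie mostly in the long interval between the GATC in His2B and that before His3, of which a mean of 62.0% is covered, and no peak touches His1.

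The GATC in His2B (coding exon) and the GATC at the left edge of His3 bound this fragment, and 30 bases around each were the same in 22 of 22 copies. The spacer between the divergent genes His2B and His2A lies inside the fragment and is shown because it joins the start of His2B, which peaks covered in 16 of 23 copies, to that of His2A, covered in 15 of 20. Its commonest form was found in 8 of 20 copies, with 4 forms in all. Plus strand bases of Release 6 are given, with GATC in capitals in the first pair and TATAAA of either strand in capitals in the last.
GATC in His2B, chr2L:21418372-21418401: gaacagccgtttgGATCtcccgactggtga
GATC by His3, chr2L:21420108-21420137: tagcaaatgctctGATCgtttattgtgttt
Spacer of His2B and His2A, chr2L:21423609-21423736: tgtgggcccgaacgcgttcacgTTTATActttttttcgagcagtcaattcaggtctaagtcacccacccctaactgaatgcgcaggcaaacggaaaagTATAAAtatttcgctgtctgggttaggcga
TATAAA, searched on both strands, occurs 2 times in this spacer, once toward each gene, and in 15.2% of windows of 128 bp tiled along 2L.

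Outside the histone cluster, 186 peaks lay on 2 or more genes. Of the 463 gene entries of all 221 cells, 462 could be placed in RefSeq by symbol, by a synonym or, for 10 names cut at a bracket, by the nearest gene of that form. The genes of these 186 peaks were protein-coding in 286 of 318 cases (89.9%), with 19 long non-coding, 5 antisense, 4 microRNA, 3 tRNA genes and 1 small nucleolar RNA gene. Among genes of peaks with 1 name, 97.4% were protein-coding. Coding genes on peaks with 2 or more names had a median span of 4581 bp, against 13644 bp for peaks with 1 name and 2114 bp for all coding genes of the 3 arms.

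Classed by name, peaks on 2 coding genes were on divergent pairs more often, and on convergent pairs less often, than windows on such pairs. There were 149 such peaks on 127 distinct pairs. Divergent pairs, whose promoters face each other, made up 29 of the 149 (19.5%, interval 13.4 to 26.7%) and 9.03% of 7673 windows of 838 bp that touch exactly 2 genes, both coding. Convergent pairs, whose ends face each other, made up 4 peaks (2.68%, 0.736 to 6.73%) and 8.12% of windows. Same-strand neighbours were 14.8% against 14.1%, genes with overlapping ends 21.5% against 19.4%, and nested genes 41.6% against 49.3%. The intervals cover counting only, and peaks on the same pair are not independent. Genes of peaks came from the authors' names and genes of windows from RefSeq positions, so the shares are not like for like. The 3 peaks on CdGAPr and CG10466 counted as divergent, with a gap of 221 bp. They held 0 bp between genes and 0 gene starts. Gaps between the genes of a peak reached 1081 bp, beyond the 838 bp of a window.

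The comparison depended on what was counted. Of the 127 distinct pairs 21.3% were divergent and 35.4% nested, beside 20.5% and 15.7% of the 6897 pairs of coding genes that overlap or lie within 838 bp. A nested pair offers more bases for a peak than a short gap does, and pairs counted once each do not take this into account. The low share of convergent pairs was seen in both, with 3.15% of pairs against 13.9%. The comparison with windows was chosen after the data were seen.

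**Figure D5:**
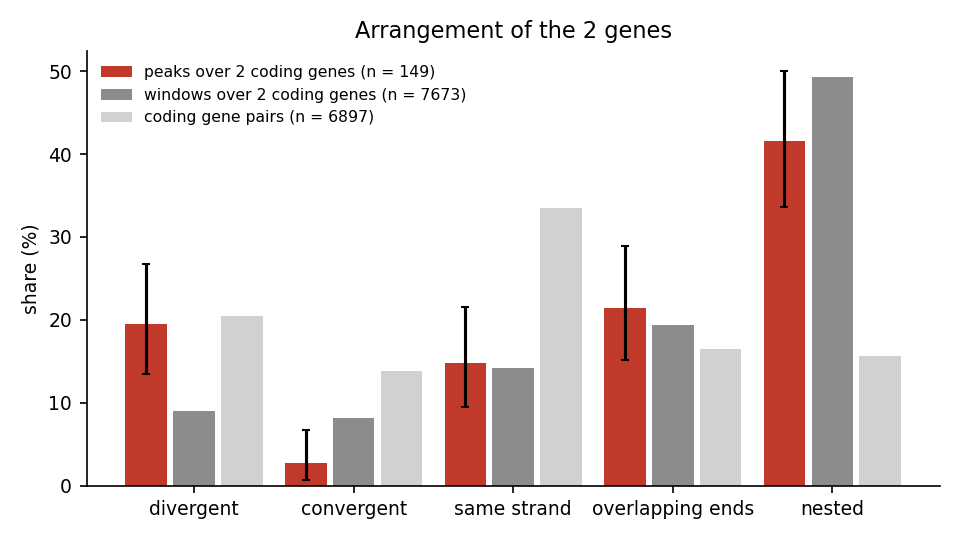
Share (y axis, %) of 5 arrangements of 2 coding genes among 149 peaks (red, error bars are exact binomial 95% intervals), among 7673 windows of 838 bp (dark grey) and among 6897 gene pairs (light grey). Genes of peaks were taken by name and those of windows by position. The red bar lies above the window bar for divergent pairs, at 19.5 against 9.03%, and below it for convergent pairs, at 2.68 against 8.12%.

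Median RPM varied among the arrangements, which was not tested, and length was not matched. Peaks on divergent pairs had a median of 53.0 RPM (23.9 to 622), on same-strand pairs 67.0 RPM (21.8 to 138), on overlapping ends 50.1 RPM (20.8 to 455), on nested genes 38.4 RPM (20.3 to 359) and on the 4 convergent pairs 31.7 RPM (23.9 to 82.6). The ranges of all 5 overlapped. The convergent pair with most RPM was that of Hsp26, a small heat shock protein gene, and CG4461.

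On 2L, the arm whose positions match Release 6, starts of transcription could be placed. Of the 53 peaks outside the histone cluster, 30 (56.6%, interval 42.3 to 70.2%) covered the start of at least 1 RefSeq transcript, against 102 of 457 peaks with 1 name (22.3%, 18.6 to 26.4%). A window on several genes is itself more likely to hold a start. Windows of 816 bp, the median length of the peaks on 2L outside the cluster, held a start in 44.8% of cases where they touched 2 or more genes and in 11.6% where they touched 1. Of the 53, 14 covered the starts of 2 or more genes, and 3 of the 457 did. The nearest start was a median of 352 bp from the peak centre, against 1754 bp for peaks with 1 name. Both contrasts follow at least in part from the choice of the sets by number of names. Windows were not counted for either.

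By base, the 53 peaks were 15.2% coding exon, 35.2% other exon, 45.0% intron and 4.64% between genes. Peaks with 1 name were 5.25% coding exon and 78.5% intron. For 2L as a whole the shares were 18.1% coding exon, 10.02% other exon, 39.6% intron and 32.3% between genes. Peaks on several genes held more exon, and less intron, than peaks on 1 gene. The sets were chosen by the number of genes named, and this difference cannot be told apart from that choice. Bases of windows on several genes were not counted.

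Letters bound by E(spl) proteins and by Su(H) were counted in the central 300 bp of the 53 peaks and over their whole length. CACGTG (class B E box), CACGCG (class C) or CACGAG (an N box form), on either strand, was present in the central 300 bp of 7 of 53 peaks (13.2%, 5.48 to 25.3%), of 18.2% of peaks with 1 name and of 14.4% of windows of 300 bp. For CACAAG, the other N box form, the shares were 9.43, 12.7 and 12.7%. For CATGTG they were 9.43, 14.9 and 13.2%. GTGGGAA or GTGAGAA, forms of the Su(H) site, was present in 6 of 53 (11.3%, 4.27 to 23.0%), in 5.91% and in 6.67%. In the central 300 bp the intervals of the 53 peaks for these 4 counts included the share of windows, so that a difference there was not detectable with 53 peaks. Over the whole peak, set beside windows of 816 bp although peaks vary in length, this did not hold for every motif. The E box and N box forms counted together at first were in 45.3% of the 53 peaks (31.6 to 59.6%), in 41.1% of peaks with 1 name and in 34.1% of windows. The class C form was in 24.5% (13.8 to 38.3%), in 23.0% and in 13.5%. The forms of the Su(H) site were in 30.2% (18.3 to 44.3%), in 21.01% and in 17.1%, and its second form by itself was in 17.0% (8.07 to 29.8%), in 10.1% and in 7.58%. For the class C form and for both Su(H) counts the interval of the 53 peaks lay above the share of windows, and for all 3 it included the share of peaks with 1 name. Length was not matched in the comparison with windows. The 53 peaks were up to 2956 bp long, and a longer interval holds more letters by construction. These 3 counts are therefore not like for like with windows, and the part of length in them was not tested. Other letters went the other way over the whole peak. The other N box form was in 26.4% of the 53 peaks (15.3 to 40.3%), in 34.1% of peaks with 1 name and in 30.9% of windows. For the third of the 4 counts above, the shares were 24.5% (13.8 to 38.3%), 37.0% and 31.7%. Both intervals included the share of windows. The class B form was in 11.3% (4.27 to 23.0%), in 11.6% and in 9.41%.

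The matches with the E box and class C letters, and the Su(H) match by the microRNA genes described next, are shown with 30 bases each on the strand that carries the letters, matched letters in capitals. All of them lie in introns.
kis and CR44221, chr2L:228796-228825 plus strand, peak of 47.8 RPM: tgaatgcatgtgCACGTGgggaatgggaat
CG8678 and CG8679, chr2L:21218745-21218774 plus strand, peak of 36.4 RPM: cagtgagcgcaaCACGTGttgttgctattt
CG8678 and CG8679, chr2L:21218703-21218732 plus strand, same peak: gagcgcacgctcCACGCGataagcttacca
spi, mir-2a-1 and mir-2b-2, chr2L:19570328-19570357 minus strand, peak of 55.6 RPM: aagccgacggccGTGAGAAcgttgcaaaaa
The peak on CG8678 and CG8679 held both CACGTG and CACGCG within its central 300 bp. Kis encodes a chromatin remodeling factor of the CHD family.

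Both peaks that named microRNAs held a host gene and a pair of microRNAs in its intron. On 2L a peak of 55.6 RPM lay on spi, which encodes the EGF receptor ligand Spitz, and on mir-2a-1 and mir-2b-2. On 3R a peak of 37.4 RPM lay on E2f1, which encodes the E2F factor that drives entry into S phase, and on mir-998 and mir-11. The mature microRNAs of the 3 prime arms are shown with their seed, bases 2 to 8, in capitals, read from the Release 6 sequence at RefSeq's own positions.
mir-2a-1: uAUCACAGccagcuuugaugagc
mir-2b-2: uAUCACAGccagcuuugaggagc
mir-11: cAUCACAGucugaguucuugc
mir-998: uAGCACCAugagauucagcuc
The first 3 share the seed AUCACAG and mir-998 has AGCACCA. MicroRNAs with the first seed are known to pair with K box letters in transcripts of E(spl) and Bearded genes. Of 145 microRNA genes placed on the 3 arms these 4 were on peaks with 2 or more names and 2 were on peaks with 1 name. MACS had no peak where Qseq had the one on spi. E2f1 was also named alone by peaks of up to 142 RPM.

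Lists of genes from the pathways of the study, and of other cell types and families, were counted on peaks with 2 or more names and on peaks with 1. Of 11216 RefSeq genes of the 3 arms, 390 (3.48%) were on such peaks and 849 (7.57%) on peaks with 1 name. Of 13 Notch pathway genes 0 were on peaks with 2 or more names and 5 on peaks with 1 name. Of 19 cell cycle genes 2 (10.5%) and 3 were. These were E2f1, above, and Myt1, an inhibitory kinase of Cdk1, with vito at 21.8 RPM. CycE, stg and dap were on no peak with 2 or more names (dap lies on an arm outside the rule). CycE was named alone by a peak of 21.3 RPM. Of 19 neuroblast regulators 2 (10.5%) and 5 were. These were pros, above, and nub, a POU domain factor, whose peak with Ref2 had 44.7 RPM and lay wholly in intron.

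Of 8 Hox genes 0 were on peaks with 2 or more names and 4 on peaks with 1. The counts were 0 and 1 of 4 cell death genes, 0 and 3 of 6 glial genes, 0 and 1 of 6 muscle genes, and 0 and 4 of 4 tracheal genes. Of 5 genes of gut and Malpighian tubule 1 and 2 were, and the first was byn, the T-box factor of the hindgut, with 34.8 RPM. These lists hold few genes, and names cut at a bracket could be placed only where a neighbour was named.

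Of 56 ribosomal protein genes 3 (5.36%) were on peaks with 2 or more names, RpL37A with qtc (99.7 RPM), RpS9 with CG3408 (86.7 RPM) and RpL6 with CycG (79.0 RPM), and 1 was on a peak with 1 name. Of 168 tRNA genes 4 and 0 were, and 3 of these had neighbours in the same peak, at 21.8 and 30.6 RPM. Of 1728 long non-coding genes 25 (1.45%) and 20 (1.16%) were. On peaks with 2 or more names the strongest were CR43644, CR32385, CR42862 and, with 165 RPM, CR43641 with CR43642. Of 260 genes of tandem families 2 and 6 were, namely Obp28a, an odorant-binding protein gene, with 138 RPM and Cpr64Aa, a cuticle protein gene, with 36.4 RPM.

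In 18 cases the same cell of gene names recurred, and 46 of the 221 peaks were in such cells. CG43739 and sky shared 4 peaks from 46.7 to 58.2 RPM over 26248 bp. Lasp and CG43954 shared 3 peaks from 33.2 to 339 RPM over 4292 bp. CG42637 and Gyc76C, a receptor guanylyl cyclase gene, shared 3 from 29.1 to 119 RPM. Of neighbouring peaks 10 pairs overlapped each other by at least 1 bp.

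The MACS tables, made from the same reads, had a peak at most of these places. Of the 221 peaks 183 (82.8%, interval 77.2 to 87.5%) overlapped a MACS peak by at least 1 bp, and 183 did so with at least 50% of their length. For peaks with 1 name the share was 78.3% (76.2 to 80.3%). In the histone cluster the share was 29 of 30. The strongest peaks without a MACS peak were those on pros, KP78a and KP78b (194 RPM), on CG42637 and Gyc76C (119 RPM), on the alphagamma-element (119 and 107 RPM) and on Mi-2, Su and CR32218 (116 RPM). As both callers read the same library, an overlap is no replication.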

How the data were processed

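The study made DamID and ChIP libraries of embryos, and the tables used hold 1 un-driven m8 DamID library. Reads of 100 bp were assembled by the authors in SeqMan NGen (DNASTAR), and Qseq gave the peaks. The deposited count is the number of reads in a peak. The deposited RPM is that count per 1000000 reads of the library, and both give a total of 1925156 reads. The authors kept peaks above 20 RPM by their p-value, which was not used further. MACS tables of the same library hold RPM as deposited. 0 columns were left unmatched.

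Peaks were chosen by sequence accession and by the names in the cell of intersecting genes, split at commas and semicolons. The members and lists were chosen with earlier results of these data known. The labels name dm6. Placed genes overlapped their peak in Release 6 in 95.7% of cases for peaks with 2 or more names on 2L, 66.1% on 3L and 0% on 3R, so sequence was read by the authors' positions on 2L alone, and elsewhere genes were taken by symbol from RefSeq Release 6. No positions were converted. Transcript starts, motifs and GATC sites were counted beside peaks with 1 name and beside windows tiled end to end. With 1 library no test was run. Intervals are exact binomial or Poisson 95% intervals and cover counting error only; PCR reads are not independent molecules. Genes named in the text are those of the 15 peaks with most RPM, all peaks with 5 or more names, the 5 longest, the 5 with most reads per bp, and up to 4 per list (other names were chosen with their values in view). One of the 15 peaks is not reported here. The functions were tested on simulated data. The work used scipy 1.17.1, pandas 2.3.3, numpy 2.4.6 and, for plots, matplotlib 3.10.9, under Python 3.11.15.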

Additional observations from a re-analysis of the deposited data

Results flagged for a closer look

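Of 17 Qseq peaks on the mitochondrial sequence, 9 had 2 or more gene names, from 21.3 to 4273 RPM, and these 9 carried the note 3R in the column of arm names although their sequence accession is that of the mitochondrial genome. They stood outside the comparisons because arms were taken from the accession.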

How the results depend on the processing

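No paired analysis was possible because a single library stands in the tables, and for the same reason no replicate could be left out. The median RPM of peaks with 2 or more names was 1.12 times that of peaks with 1 name. The interval of the former median, 40.5 to 54.5 RPM, included the 41.8 RPM of peaks with 1 name. The ratio was 1.32 on 3R alone and 0.894 in the longest class of length. It was also below 1 for reads per bp (0.970), in peaks of up to 646 bp (0.971) and in those of 647 to 838 bp (0.992). Under the other alternatives, among them peaks of at least 40 RPM (1.02) and the MACS table (1.11), it stayed above 1. The median length was 1.07 times that of peaks with 1 name, and from 1.03 to 1.12 times under the alternatives. The share of 9.38% of peaks became 14.1% in the MACS table, 7.69% with protein-coding genes only, 12.0% on 2L, 8.11% on 3L, 8.22% without the histone cluster, and 7.20 and 13.5% in the shortest and longest class of length. The cause was not tested. The share with a MACS peak did not move with an overlap of 50%, and the share covering a start on 2L was 52.8% with mRNA alone. Leaving out the histone cluster and counting genes by the cell's own separators were chosen after seeing the data.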
